A study of Mus musculus with 22 samples.

Results

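Genes of glycolysis and of the hypoxia response were followed in fibroblasts sorted from mouse skin after an expander had been placed under it. The group holds 34 genes, chosen by name from the 55414 genes of the count table: the glucose transporter and hexokinases, the enzymes from glucose phosphate to pyruvate, the genes that make, export or divert lactate and pyruvate, the hypoxia-inducible factors (HIF) with their hydroxylases, and further HIF targets. All 34 were found, and all 34 passed the filter on low counts that left 17554 genes to test. One of them, Aldoc, passed it on the counts of a few libraries only, as given below.

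Every mouse had a cut made in the back skin by the tail, from which a path under the skin was opened as far as the neck. EXP mice received an expander hydrogel there, fixed with stitches, a device that swells and stretches the skin above it, and CTRL mice had the surgery without one. Skin was taken on day 1 (4 CTRL and 5 EXP libraries), day 2 (3 CTRL and 3 EXP) or day 4 (4 CTRL and 3 EXP), which gives 22 libraries in 6 groups. Live cells that carried CD34 and PDGFRα and lacked CD31, CD45, CD117 and EpCAM were sorted and their RNA was sequenced. Strain, age and sex are not given in the sources used here, nor whether libraries of a group came from separate mice, so p-values measure only the spread between these libraries, which may be technical.

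Glycolysis splits glucose into pyruvate in the cytosol and yields ATP without oxygen, and lactate dehydrogenase with the monocarboxylate transporters removes the pyruvate as lactate. HIF is a pair of an oxygen-labile alpha subunit, made by Hif1a or Epas1, and a stable beta subunit. With oxygen, prolyl hydroxylases such as Egln1 and Egln3 mark the alpha subunit for destruction, so its activity is set largely after transcription, while most glycolytic genes and the targets listed here are transcribed under its control in hypoxia. Fibroblasts of the dermis make and remodel the collagen matrix of the skin.

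Library totals ran from 21461294 to 30210204 counts, and levels below are CPM (counts scaled to a common library size) after scaling by trimmed mean of M values (TMM). The summed level of 10 fibroblast markers, 3 of them collagen genes, was, in CPM without TMM, 117000 to 173900 in day 1 EXP against 218600 to 264600 in CTRL, 86890 to 182700 against 293000 to 327100 on day 2, and 110800 to 260100 against 243900 to 307200 on day 4. Scaling by library totals in place of TMM raised the median log2 fold change of all genes by 0.19, 0.47 and 0.33 on days 1, 2 and 4, and changes are therefore given relative to TMM. Markers of other cell types were far lower. The arms overlapped on every day for 10 keratinocyte genes (at most 54.5 CPM in sum), 10 macrophage genes (63.1 to 198), 11 skeletal muscle genes (at most 8.16) and 5 Schwann cell genes (at most 14.6). The macrophage sum was mostly Csf1r (15.53 to 126.8 CPM), Cd14 (9.664 to 100.1) and Cd68 (1.235 to 31.49). Lyz2 reached 4.467 CPM, and no other macrophage marker, Ptprc and Adgre1 among them, exceeded 0.4921 CPM in any library.

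The summed markers of 6 other cell types moved with the arm on at least 1 day. Mature adipocyte genes (6 markers) reached 57.4 to 465 CPM in day 4 EXP against 0.472 to 1.85 in CTRL, and 8.55 to 112 against 0.2 to 2.8 on day 2, with Plin1 and Lep at 0 in all CTRL libraries of both days. Erythroid genes (6 markers) reached 12.9 to 125 CPM in day 4 EXP against 2.43 to 11.9, and 5.03 to 11.7 against 2.47 to 3.47 on day 2. Endothelial genes (8 markers) reached 6.04 to 14.1 CPM against 0.258 to 4.35 on day 4 and 1.09 to 3.46 against 0.11 to 0.513 on day 2. Neutrophil genes (8 markers, with Cxcr2 at 0 in every library) reached 0.957 to 4.03 CPM against 0.145 to 0.258 on day 4 and 0.839 to 5.97 against 0.0734 to 0.439 on day 2. The highest neutrophil sums were mostly S100a8 (up to 5.45 CPM), and no other marker of that list exceeded 0.815 CPM in any library. Melanocyte genes (5 markers) were apart on day 2 alone, at 19.3 to 39.5 CPM against 4.88 to 11.3. That sum was almost all Mlana (up to 38.9 CPM), as no other melanocyte marker exceeded 1.67 CPM in any library. Pericyte and smooth muscle genes (7 markers) were lower in EXP, at 21.98 to 46.1 CPM against 49.2 to 84.8 on day 1 and 36.8 to 60.3 against 71.3 to 86.3 on day 2, and overlapped on day 4. The part of these cells in the results was not tested, and in bulk RNA fewer cells of a type and less RNA per cell cannot be told apart.

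A further pattern cut across the groups. In 192 genes that followed Rnf10 across libraries, none of them among the 34, 7 libraries stood apart (day 1 CTRL 1 to 3, day 1 EXP 1 and 2, day 4 CTRL 3 and 4). Their mean log2 CPM over these genes was 4.829 to 5.476, beside 2.473 to 4.133 in the other 15, with a gap of 0.696. EXP replicate 3 of day 4 also differed from the other EXP libraries of its day. Among the 16 that passed the test on day 4 it was the EXP library closest to the CTRL mean for all but Hif1a, and results without it are given where they differ.

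The regions before the start sites of the 7 genes that were higher on every day are shown because these genes moved together, with that of Pfkfb4, a glycolytic regulator that fell. Each run is the 200 bases before a RefSeq start site (GRCm38.p6), 5′ to 3′ on the strand of the gene, and capitals mark ACGTG and GCGTG on either strand, the cores of the hypoxia response element that HIF binds.
Slc2a1 (chr4:119108545-119108744, plus strand): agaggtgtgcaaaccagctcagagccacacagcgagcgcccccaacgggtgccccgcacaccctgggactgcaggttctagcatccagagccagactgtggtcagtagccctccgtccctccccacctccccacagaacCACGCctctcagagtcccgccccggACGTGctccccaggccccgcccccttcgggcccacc
Gpi1 (chr7:34230337-34230536, minus strand): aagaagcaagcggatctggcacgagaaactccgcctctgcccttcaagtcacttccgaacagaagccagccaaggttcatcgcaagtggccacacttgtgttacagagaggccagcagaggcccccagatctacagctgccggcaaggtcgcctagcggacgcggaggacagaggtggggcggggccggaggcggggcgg
Pgk1 (chrX:106186900-106187099, plus strand): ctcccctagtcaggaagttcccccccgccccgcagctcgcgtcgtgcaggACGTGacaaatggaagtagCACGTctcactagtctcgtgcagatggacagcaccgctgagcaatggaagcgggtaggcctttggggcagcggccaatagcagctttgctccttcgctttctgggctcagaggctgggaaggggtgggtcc
Pgam1 (chr19:41911671-41911870, plus strand): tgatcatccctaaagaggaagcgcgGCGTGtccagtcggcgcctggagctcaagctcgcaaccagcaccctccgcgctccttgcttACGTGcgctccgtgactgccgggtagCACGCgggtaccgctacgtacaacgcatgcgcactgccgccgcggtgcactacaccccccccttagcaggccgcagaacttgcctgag
Pkm, first start site (chr9:59656376-59656575, plus strand): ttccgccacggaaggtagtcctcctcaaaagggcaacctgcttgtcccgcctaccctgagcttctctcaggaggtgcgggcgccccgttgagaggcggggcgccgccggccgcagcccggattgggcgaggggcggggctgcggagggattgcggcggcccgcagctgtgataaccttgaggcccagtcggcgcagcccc
Pkm, second start site (chr9:59657027-59657226, plus strand): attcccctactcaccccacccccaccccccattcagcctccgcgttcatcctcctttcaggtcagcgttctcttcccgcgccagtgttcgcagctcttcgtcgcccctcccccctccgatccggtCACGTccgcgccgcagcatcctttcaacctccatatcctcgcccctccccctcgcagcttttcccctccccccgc
Ldha, first start site (chr7:46845604-46845803, plus strand): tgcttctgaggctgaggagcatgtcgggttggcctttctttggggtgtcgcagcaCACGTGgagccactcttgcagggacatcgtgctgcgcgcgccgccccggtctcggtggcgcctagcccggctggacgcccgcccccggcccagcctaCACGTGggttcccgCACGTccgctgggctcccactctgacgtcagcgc
Ldha, second start site (chr7:46846882-46847081, plus strand): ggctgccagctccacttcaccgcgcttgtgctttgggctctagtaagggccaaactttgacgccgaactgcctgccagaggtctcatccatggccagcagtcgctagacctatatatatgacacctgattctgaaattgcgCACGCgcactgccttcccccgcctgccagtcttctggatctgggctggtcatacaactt
Hif1a (chr12:73907667-73907866, plus strand): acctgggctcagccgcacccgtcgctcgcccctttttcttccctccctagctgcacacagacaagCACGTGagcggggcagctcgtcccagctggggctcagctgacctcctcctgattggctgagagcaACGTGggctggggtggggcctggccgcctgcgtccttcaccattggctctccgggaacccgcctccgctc
Pfkfb4 (chr9:108991702-108991901, plus strand): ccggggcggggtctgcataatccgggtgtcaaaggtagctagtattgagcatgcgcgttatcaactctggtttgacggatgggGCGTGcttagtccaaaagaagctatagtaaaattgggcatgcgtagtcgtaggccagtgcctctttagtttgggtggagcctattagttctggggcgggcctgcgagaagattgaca
Matches on both strands were counted, and overlapping ones separately, so CACGTG counts as a pair. The first Ldha window held 5 matches, Hif1a and Pgam1 3 each, Pgk1 and Slc2a1 2 each, and the second Ldha, second Pkm and Pfkfb4 windows 1 each, while the Gpi1 and first Pkm windows held none of these letters. Of 44 windows of 31 members in the RefSeq table, 30 held either motif, or 68.2%, beside 34.1% of 32851 windows over all genes (14.0% with ACGTG and 24.7% with GCGTG). By outcome, 13 of 15 members higher on at least 1 day, 5 of 5 lower on at least 1 day and 8 of 11 that passed on no day had a match. A match describes letters only, and binding was not measured.

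Of the 22 genes of glycolysis and lactate handling, those that passed the test were mostly higher in expanded skin (9 of 10 on day 1, 7 of 9 on day 2 and 12 of 13 on day 4). Of the 8 HIF targets outside glycolysis 1, 1 and 2 passed, a share below that of all genes on day 1 and near it on days 2 and 4. A longer list of HIF targets that are not members, given below, passed at a share near that of all genes on day 1 and above it on days 2 and 4. On day 1, 13 of the 34 genes passed the edgeR test at an adjusted p under 0.05 (28.6% of all genes tested did), 12 of them higher and 1 lower in EXP, beside 13.9% and 14.7% of all genes. On day 2, 12 passed, 9 higher and 3 lower, beside 13.4% of all genes (7.72% higher, 5.71% lower). Leaving out 1 library took the day 2 count to between 3 (without EXP 1) and 10, with 4 without CTRL 2 and 6 without CTRL 1, and 10 of the 12 calls were lost in at least 1 of these fits. On day 4, 16 passed, 14 higher and 2 lower, beside 22.5% (12.8% higher, 9.66% lower). Inside 1 side of the library split, where fewer libraries could be compared, 5 of the 13 day 1 calls and 0 of the 16 day 4 calls passed. With library totals the day 2 count became 16 higher and 1 lower, and days 1 and 4 gave 15 and 17 higher with 1 lower each.

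The 22 genes of glycolysis and lactate handling had median log2 fold changes of 0.48, 0.52 and 0.98 on days 1, 2 and 4, beside 0.017, 0.021 and 0.032 over all genes tested. With Aldoc set to its detection floor of 3 counts per library these medians were 0.31, 0.44 and 0.98. Of the 22, 9 rose and 1 fell on day 1, 7 rose and 2 fell on day 2, and 12 rose and 1 fell on day 4. The 12 HIF factors, hydroxylases and other targets had medians of 0.28, -0.36 and -0.12, of which the last 2 became 0.12 and 0.21 with library totals, so their sign depends on the scaling. Among these 12, 3 rose on day 1, 2 rose and 1 fell on day 2, and 2 rose and 1 fell on day 4. Of all genes tested, 28.6%, 13.4% and 22.5% passed on days 1, 2 and 4. The share of the 12 that passed was near this on days 1 and 4 and above it on day 2.

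**Figure D1:**
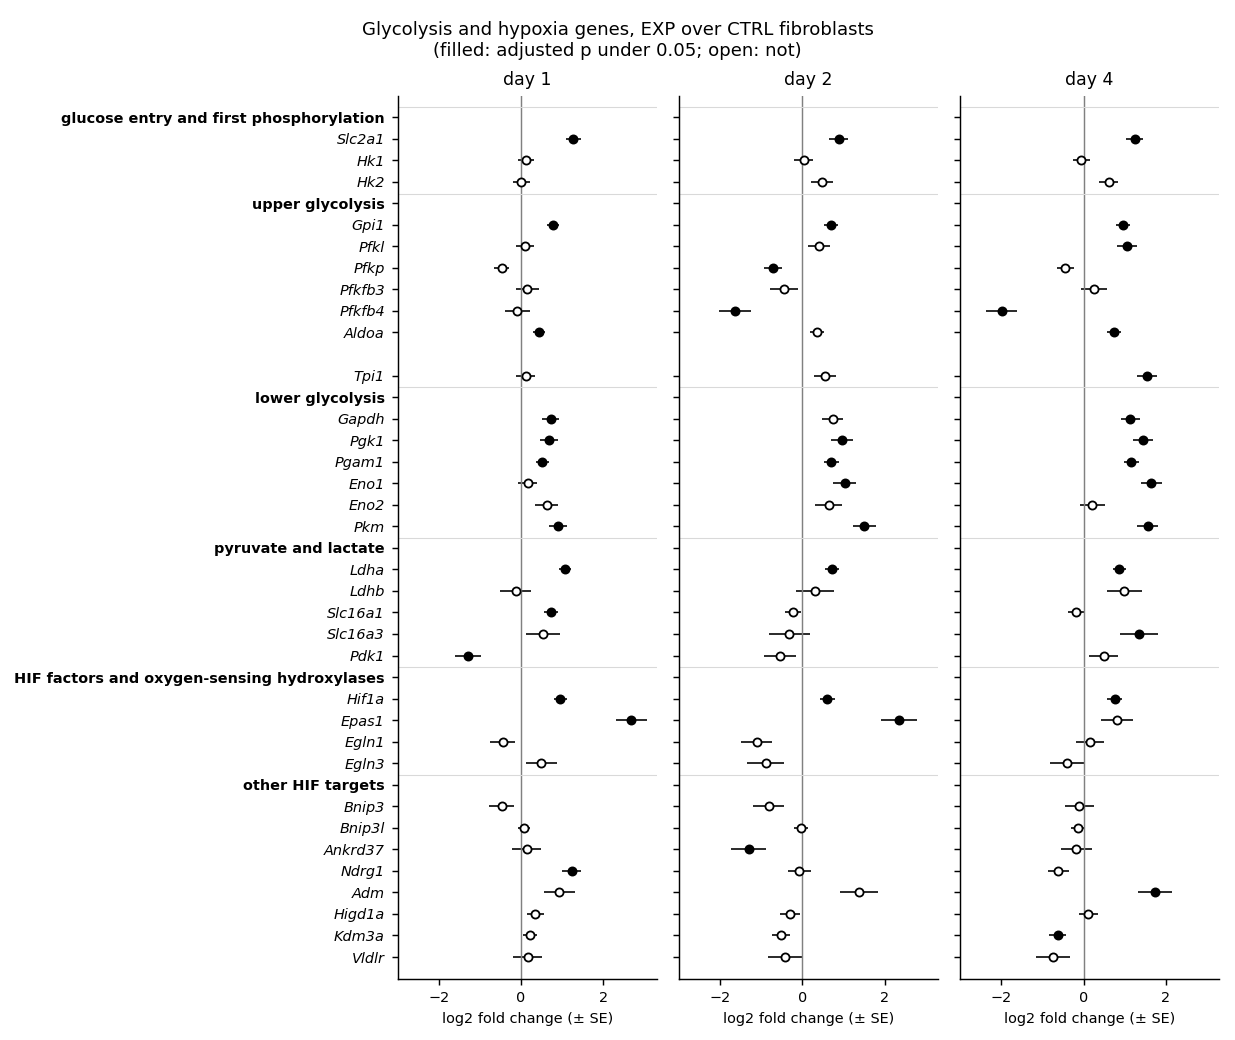
Log2 fold change of EXP over CTRL (x axis, with SE) for 33 genes by role (y axis) on days 1, 2 and 4, filled where the edgeR adjusted p was under 0.05; Aldoc, near 0 counts, is left out. The lower glycolysis genes lie to the right of 0 on all 3 days, while the HIF targets lie on both sides.

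By day, 7 genes rose on all 3 days (Slc2a1, Gpi1, Pgk1, Pgam1, Pkm, Ldha and Hif1a), which 2.5% of all genes tested did. Another 4 rose on exactly 2 days (Aldoa, Gapdh, Eno1 and Epas1) and 6 on 1 day (Pfkl, Tpi1, Slc16a1, Slc16a3, Ndrg1 and Adm). No gene fell on all 3 days, which 1.78% of all genes did, and 5 fell on 1 or 2 days without rising on another (Pfkp, Pfkfb4, Pdk1, Ankrd37 and Kdm3a). The other 12 passed on no day: Hk1, Hk2, Pfkfb3, Aldoc, Eno2, Ldhb, Egln1, Egln3, Bnip3, Bnip3l, Higd1a and Vldlr. All EXP libraries lay above all CTRL libraries for 10, 11 and 13 of the 34 genes on days 1, 2 and 4, beside 11.7%, 20.9% and 13.8% of all genes, and below them for 0, 8 and 2, beside 12.2%, 18.4% and 11.8%.

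Of the genes of glucose entry, the transporter rose on every day. Neither hexokinase passed the edgeR test over all 22 libraries with TMM and no covariate. Slc2a1, the widely expressed transporter GLUT1, stood at 41.6, 32.5, 42.1 and 48.4 CPM in day 1 CTRL and at 132, 67.4, 89, 102 and 105 in EXP. On day 2 it was at 39.9, 39.1 and 47.9 CPM in CTRL and at 88.5, 71.5 and 73.3 in EXP. On day 4 it was at 31.9, 36.1, 42.6 and 36.7 CPM in CTRL and at 104, 95.2 and 61.5 in EXP. Every EXP library lay above every CTRL library of its day. The log2 fold changes were 1.26 ± 0.19 (SE, adjusted p = 6.27e-05), 0.88 ± 0.22 (adjusted p = 0.0117) and 1.24 ± 0.20 (adjusted p = 0.000563). The day 2 call was lost without CTRL 1 (adjusted p = 0.0503), CTRL 2 (0.0587) or EXP 1 (0.0671), at log2 fold changes of 0.78 to 0.84.

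The hexokinases, which phosphorylate glucose and hold it in the cell, did not pass this test on any day. Hk1 had log2 fold changes of 0.13 ± 0.19, 0.03 ± 0.23 and -0.05 ± 0.22. Hk2, the inducible form, had 0.00 ± 0.21, 0.48 ± 0.26 and 0.61 ± 0.24, the last with an adjusted p of 0.0719. Hk2 did pass as higher on day 4 with the library split as a covariate (0.84, adjusted p = 0.0173) and with library totals (0.92, 0.00373), and with totals on day 2 (0.96, 0.00552). On day 4 the EXP libraries of Hk2 (375, 575 and 436 CPM) all lay above the CTRL libraries (329, 197, 340 and 348).

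In upper glycolysis, Gpi1 rose throughout, while the phosphofructokinase steps went in both directions. Gpi1, the isomerase that turns glucose phosphate into fructose phosphate, was at 74.8, 78.5, 66.8 and 69.9 CPM in day 1 CTRL and at 130, 103, 116, 135 and 134 in EXP. It was at 67.7, 66.9 and 71.6 CPM against 135, 86.9 and 112 on day 2. It was at 58.7, 60.5, 63.4 and 64.9 CPM against 133, 140 and 87.5 on day 4. CTRL libraries stayed within a narrow band and no EXP library reached into it on any day. Its log2 fold changes were 0.77 ± 0.15 (adjusted p = 0.000584), 0.69 ± 0.18 (0.0124) and 0.96 ± 0.16 (0.000721), and the day 2 call was lost without CTRL 2 (0.67, adjusted p = 0.0564) or EXP 1 (0.54, adjusted p = 0.0978).

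Phosphofructokinase commits sugar to glycolysis. Its liver-type gene Pfkl rose on day 4 (1.05 ± 0.25, adjusted p = 0.00646), with 0.10 ± 0.22 and 0.40 ± 0.27 before. This call was lost without EXP 2 (0.74, adjusted p = 0.0691) and in the fit to that day alone (1.03, 0.0734). The platelet-type gene Pfkp had log2 fold changes of -0.47 ± 0.18 (adjusted p = 0.0541), -0.71 ± 0.22 (0.0363) and -0.45 ± 0.21 (0.126), and passed on day 1 without CTRL 4 (-0.59, adjusted p = 0.0244), with DESeq2 (0.0419) and with limma voom (0.0179). Its day 2 call was lost when any 1 of the 6 libraries was left out (-0.62 to -0.77, adjusted p = 0.0535 to 0.166) and under library totals (-0.24).

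Pfkfb4, a kinase and phosphatase that sets the level of an activator of phosphofructokinase and a known HIF target, had the most negative log2 fold changes of the members on days 2 and 4. It stood at 50.6, 43.7, 47.1 and 26.2 CPM in day 1 CTRL and at 61.9, 35.6, 29.2, 30.9 and 38.8 in EXP, and the arms overlapped. On day 2 it was at 80.9, 81.5 and 84.2 CPM in CTRL and at 23.3, 31.7 and 24 in EXP. On day 4 it was at 80.1, 68.7, 81.4 and 82.8 CPM in CTRL and at 9.09, 12 and 38 in EXP. All EXP libraries were below all CTRL libraries on days 2 and 4. Log2 fold changes on days 1, 2 and 4 were -0.09 ± 0.31 (adjusted p = 0.848), -1.64 ± 0.38 (0.00794) and -1.99 ± 0.37 (0.00164), and the day 2 call was lost without EXP 1 (-1.56, adjusted p = 0.052). Its relative Pfkfb3 did not pass on any day (0.15 ± 0.28, -0.44 ± 0.34 and 0.25 ± 0.31).

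Aldolase splits the sugar, and triose phosphate isomerase converts the products into one another. Aldoa rose on day 1 (0.44 ± 0.15, adjusted p = 0.0278) and day 4 (0.73 ± 0.16, adjusted p = 0.00464) and had 0.36 ± 0.18 (adjusted p = 0.192) on day 2. Its day 1 call was lost without CTRL 1 (0.41, adjusted p = 0.0766), CTRL 3 (0.39, 0.0904), EXP 4 (0.42, 0.0554) or EXP 5 (0.41, 0.0602). That call was also lost with the split as a covariate (0.36, 0.0661), and the day 4 call in the fit to that day alone (0.72, 0.0708). Aldoc, the brain form, was all but absent: it held 18 counts in day 1 EXP 3, 2 and 5 in day 2 EXP 1 and 3, 2 in day 4 CTRL 2, and 21 and 47 in day 4 EXP 1 and 2, with 0 in the other libraries. No fold is given for it. Over all libraries Aldoc passed on no day, and without day 4 EXP 3 it passed on day 4 as higher (edgeR adjusted p = 0.0421), on these few counts. Tpi1 was at 92.5, 94.4, 104 and 106 CPM in day 1 CTRL and 79.1, 97.8, 130, 120 and 108 in EXP, at 83.1, 82.1 and 104 against 146, 105 and 144 on day 2, and at 85.2, 90.6, 96.9 and 69.2 against 320, 313 and 114 on day 4. The arms overlapped on day 1 and separated on days 2 and 4, with EXP 3 of day 4 far below the other EXP libraries. Its log2 fold changes were 0.11 ± 0.22 (adjusted p = 0.752), 0.56 ± 0.27 (0.183) and 1.54 ± 0.25 (0.000532), and on day 2 it passed with limma voom (adjusted p = 0.0286), in the fit to that day alone (0.0463) and with library totals (0.0225).

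In lower glycolysis, 4, 4 and 5 of the 6 genes rose on days 1, 2 and 4, and 0 fell on any day. Gapdh, which oxidises triose phosphate, had log2 fold changes of 0.72 ± 0.21 (adjusted p = 0.0138), 0.74 ± 0.25 (0.0579) and 1.13 ± 0.23 (0.00282). On day 2 it passed with DESeq2 (adjusted p = 0.044), with limma voom (0.00632) and with the split as a covariate (0.0378), and on day 4 it did not in the fit to that day alone (0.0528). Its own row held 18.2 to 25.8 CPM in CTRL and 26.8 to 41.3 in EXP on day 1, 21.4 to 29.3 against 36.1 to 46.8 on day 2, and 20.8 to 28.0 against 28.8 to 73.3 on day 4, where CTRL 2 and EXP 3 all but met. Eno2, the neuronal enolase, passed on no day (0.62 ± 0.27, 0.65 ± 0.33 and 0.21 ± 0.30), and passed on day 1 without CTRL 1 (0.87, adjusted p = 0.0324) and with the split as a covariate (0.77, 0.0354).

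Pgk1, the first ATP-yielding kinase of the pathway, was at 11.3, 14.6, 14.8 and 18 CPM in day 1 CTRL and at 17.9, 20.5, 30.3, 25.5 and 23.1 in EXP. It was at 12.9, 11.4 and 14.8 CPM against 30.3, 21.9 and 24.3 on day 2, and at 15.5, 14.8, 10.8 and 11.2 against 43.8, 41.7 and 20.6 on day 4. Only day 1 EXP 1 fell within the CTRL range of its day. The changes in log2 units were 0.67 ± 0.21 (adjusted p = 0.0215), 0.97 ± 0.26 (0.0169) and 1.44 ± 0.24 (0.000607). On day 1 the call was lost without CTRL 1 (0.57, adjusted p = 0.0792) or EXP 3 (0.57, 0.0606) and with the split as a covariate (0.51, 0.0504), and on day 2 without CTRL 1 (0.96, 0.0607), CTRL 2 (0.88, 0.0896) or EXP 1 (0.83, 0.0936).

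Pgam1, the mutase that moves the phosphate before enolase acts, was at 57, 59.2, 56.1 and 65.6 CPM in day 1 CTRL and at 75.2, 84.3, 83.5, 96.9 and 85.8 in EXP. It was at 50.7, 46.6 and 58.8 CPM against 92.1, 83.3 and 78.4 on day 2, and at 55.4, 45.8, 61 and 43.2 against 132, 136 and 77.8 on day 4. The arms did not overlap on any day. In order of day, the log2 fold changes were 0.52 ± 0.15 (adjusted p = 0.0145), 0.70 ± 0.18 (0.0157) and 1.16 ± 0.17 (0.000291). The day 2 call was lost without CTRL 1 (0.68, adjusted p = 0.0671), CTRL 2 (0.62, 0.0936) or EXP 1 (0.64, 0.0794).

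Eno1, the enolase of most tissues, stood at 58, 69.8, 63.6 and 75.5 CPM in day 1 CTRL and at 62.7, 59.6, 76.9, 81.4 and 93.6 in EXP, and the arms overlapped. It was at 50.1, 49.3 and 61 CPM against 132, 82.5 and 112 on day 2, and at 43.7, 49.2, 52.3 and 39.8 against 219, 149 and 66.5 on day 4, with no overlap. The log2 fold changes were 0.17 ± 0.23 (adjusted p = 0.63), 1.03 ± 0.28 (0.0205) and 1.65 ± 0.26 (0.000466). The day 2 call was lost without CTRL 1 (0.98, adjusted p = 0.0779), CTRL 2 (0.97, 0.089), EXP 1 (0.86, 0.11) or EXP 3 (1.00, 0.0625).

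Pkm, the pyruvate kinase that ends glycolysis, was at 379, 447, 392 and 469 CPM in day 1 CTRL and at 847, 536, 727, 897 and 925 in EXP. It was at 371, 279 and 428 CPM against 1287, 699 and 1076 on day 2, and at 317, 286, 357 and 298 against 1405, 785 and 597 on day 4. The arms did not overlap on any day, and EXP libraries spread more widely than CTRL libraries. Log2 fold changes on days 1, 2 and 4 were 0.90 ± 0.23 (adjusted p = 0.00552), 1.50 ± 0.28 (0.00152) and 1.56 ± 0.25 (0.000529), and Pkm and Epas1 were the members whose day 2 calls held whichever of the 6 libraries was left out. Gene counts do not tell its M1 and M2 splice forms apart.

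**Figure D2:**
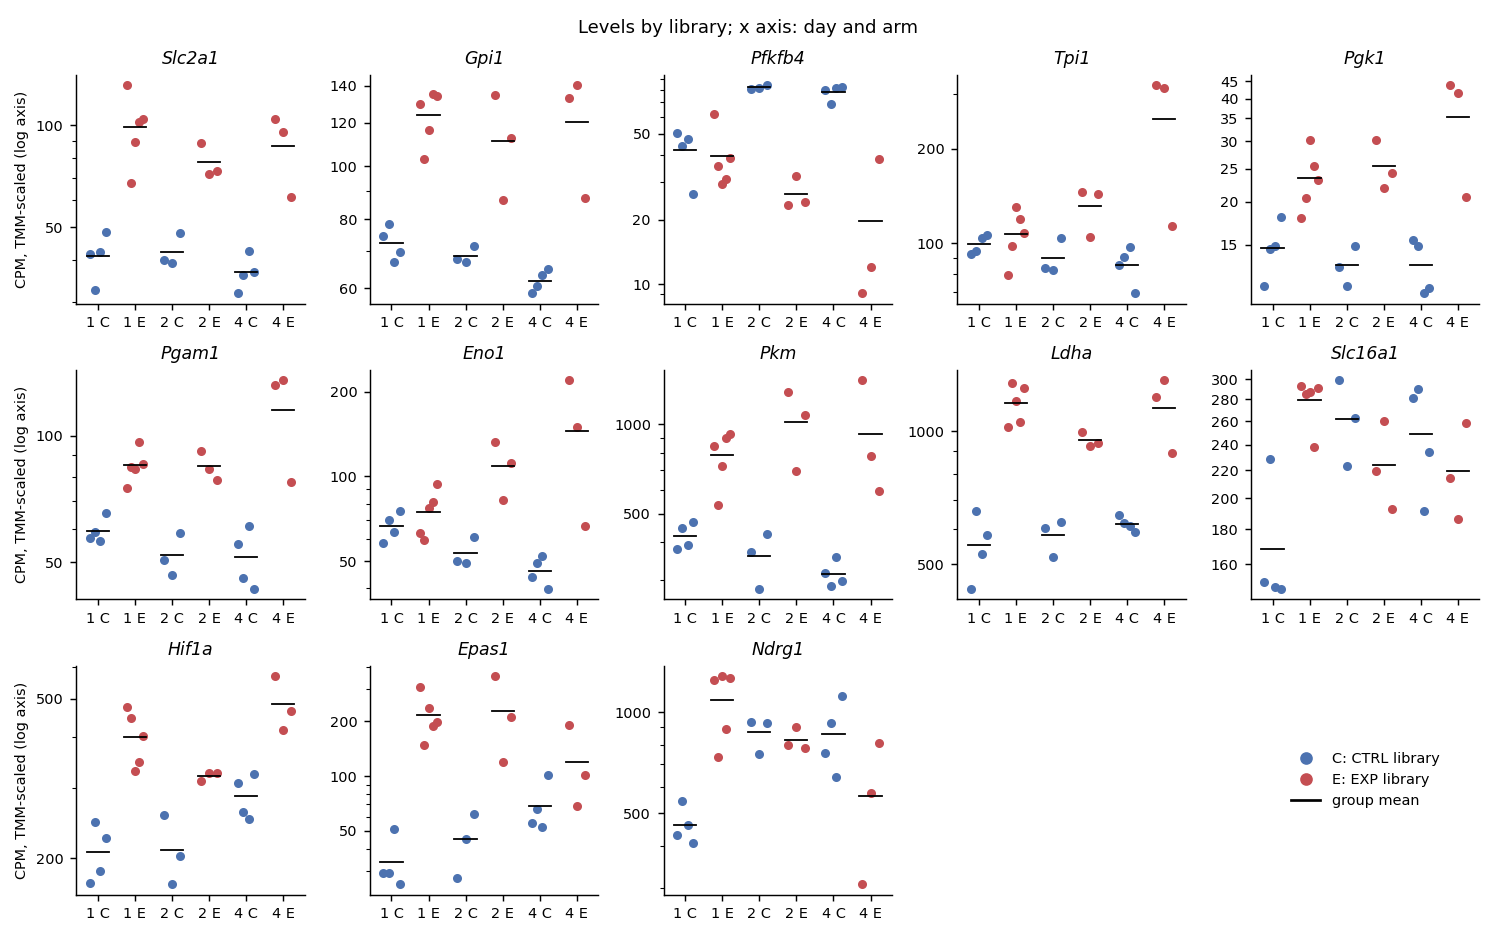
CPM after TMM scaling (y axis, log scale) of 13 genes in each library, by day and arm (C for CTRL, E for EXP), with lines at the group means. Slc2a1, Gpi1, Pgam1, Pkm and Ldha show no overlap of arms on any day, Pfkfb4 falls on days 2 and 4, and 1 EXP library of day 4 lies close to its controls in many panels.

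Among the genes of pyruvate and lactate, Ldha rose on every day, and those of lactate transport and of pyruvate dehydrogenase control changed on single days. Ldha, which turns pyruvate into lactate, was at 440, 662, 527 and 581 CPM in day 1 CTRL and at 1021, 1284, 1168, 1051 and 1253 in EXP. It was at 604, 519 and 624 CPM against 997, 927 and 940 on day 2, and at 647, 619, 612 and 593 against 1197, 1301 and 891 on day 4. The arms did not overlap on any day. The changes in log2 units were 1.06 ± 0.14 (adjusted p = 3.08e-05), 0.71 ± 0.17 (0.0091) and 0.87 ± 0.16 (0.00125), and the day 2 call was lost without CTRL 2 (0.63, adjusted p = 0.0573). Ldhb, whose enzyme favours pyruvate, lay at 1.68 to 11.9 CPM and passed on no day (-0.13 ± 0.38, 0.31 ± 0.46 and 0.99 ± 0.42), though without day 4 EXP 3 it passed at 1.32 (adjusted p = 0.0274).

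Slc16a1, the transporter MCT1 that carries lactate both ways, was at 150, 229, 148 and 147 CPM in day 1 CTRL and at 293, 286, 287, 238 and 291 in EXP, without overlap. It was at 299, 224 and 263 CPM against 220, 260 and 193 on day 2, and at 281, 290, 191 and 234 against 214, 187 and 259 on day 4, with overlap on both days. The day 1 EXP libraries thus lay near the CTRL libraries of the later days. In order of day, the log2 fold changes were 0.73 ± 0.17 (adjusted p = 0.00272), -0.22 ± 0.20 (0.502) and -0.18 ± 0.19 (0.517), and the last 2 turned positive under library totals (0.25 and 0.14).

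Slc16a3, the lactate exporter MCT4 and a known HIF target, had log2 fold changes of 0.54 ± 0.41, -0.32 ± 0.49 and 1.35 ± 0.46, and passed on day 4 (adjusted p = 0.0391). Its day 4 EXP libraries were at 66, 93.4 and 23 CPM against 16.2, 30.7, 27.1 and 21.4 in CTRL, so 1 EXP library lay within the CTRL range. This call was lost without CTRL 1 (1.20, adjusted p = 0.0897), CTRL 3 (1.42, 0.0651), CTRL 4 (1.30, 0.0846), EXP 1 (1.29, 0.118) or EXP 2 (0.88, 0.247), and with the split as a covariate (1.07, 0.137). The fit to that day alone lost this call too (1.33, adjusted p = 0.083). Pdk1, the kinase that shuts pyruvate dehydrogenase and a textbook HIF target, fell on day 1 (-1.28 ± 0.32, adjusted p = 0.00481). It had -0.54 ± 0.39 (adjusted p = 0.385) on day 2 and 0.49 ± 0.35 (0.33) on day 4.

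Hif1a rose on all 3 days and Epas1 on days 1 and 2. Neither hydroxylase passed the edgeR test over all 22 libraries with TMM and no covariate. Hif1a was at 173, 247, 186 and 225 CPM in day 1 CTRL and at 475, 448, 330, 348 and 404 in EXP. It was at 256, 172 and 202 CPM against 312, 325 and 326 on day 2, and at 309, 261, 251 and 325 against 569, 417 and 465 on day 4. The arms did not overlap on any day. The log2 fold changes were 0.95 ± 0.16 (adjusted p = 0.000206), 0.61 ± 0.19 (0.0363) and 0.75 ± 0.18 (0.00577). The day 2 call was lost without CTRL 2 (0.48, adjusted p = 0.143), CTRL 3 (0.57, 0.0959), EXP 1 (0.63, 0.0916), EXP 2 (0.59, 0.06) or EXP 3 (0.59, 0.079). The day 4 call was lost in the fit to that day alone (0.73, adjusted p = 0.0618).

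Epas1, which encodes the second alpha subunit, showed the largest rise on days 1 and 2 of the members other than Aldoc. It was at 29.4, 29.2, 51 and 25.4 CPM in day 1 CTRL and at 311, 148, 237, 189 and 198 in EXP. It was at 27.4, 45.3 and 62.3 CPM against 356, 119 and 210 on day 2, and at 55, 66.3, 52.3 and 102 against 190, 68.3 and 102 on day 4. The arms were wide apart on days 1 and 2 and overlapped on day 4. Log2 fold changes on days 1, 2 and 4 were 2.68 ± 0.37 (adjusted p = 4.74e-05), 2.34 ± 0.44 (0.00178) and 0.81 ± 0.38 (0.137, or 0.0435 under library totals). The joint test of whether its EXP effect differed between days gave an adjusted p of 0.0583. Egln1 had log2 fold changes of -0.45 ± 0.31, -1.10 ± 0.38 (adjusted p = 0.057) and 0.15 ± 0.35. On day 2 it passed as lower with DESeq2 (adjusted p = 0.028), limma voom (0.0355), the split as a covariate (0.0343) and the fit to that day alone (0.0487). Egln3, itself a HIF target, had 0.49 ± 0.37, -0.89 ± 0.45 and -0.40 ± 0.42.

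Of the 8 further HIF targets, 1 rose and 0 fell on day 1, 0 rose and 1 fell on day 2, and 1 rose and 1 fell on day 4. Ndrg1, a stress-induced gene of differentiation, was at 432, 544, 462 and 408 CPM in day 1 CTRL and at 1245, 735, 1280, 891 and 1262 in EXP, without overlap. It was at 933, 752 and 927 CPM against 798, 903 and 782 on day 2, with overlap, and at 757, 930, 639 and 1116 against 307, 574 and 811 on day 4, again with overlap. The changes in log2 units were 1.23 ± 0.23 (adjusted p = 0.000634), -0.07 ± 0.28 (0.898) and -0.61 ± 0.26 (0.0994), and without day 4 EXP 3 the last was -0.94 (adjusted p = 0.0149).

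Adm, which encodes the vasodilator peptide adrenomedullin, had positive log2 fold changes on all days (0.93 ± 0.38, 1.37 ± 0.46 and 1.74 ± 0.42), with adjusted p-values of 0.0702, 0.051 and 0.00751. It passed on day 1 without EXP 5 (1.12, adjusted p = 0.0264), and on day 2 without CTRL 2 (1.80, 0.0382) or EXP 2 (1.68, 0.0222). With DESeq2 it passed on both days (adjusted p = 0.0401 and 0.0179). Ankrd37, an ankyrin repeat gene, fell on day 2 (-1.30 ± 0.42, adjusted p = 0.0414) at only 16 to 53 counts per library, and the call was lost when any 1 of the 6 libraries was left out (-1.10 to -1.43, adjusted p = 0.083 to 0.14). Kdm3a, an oxygen-dependent histone demethylase, fell on day 4 (-0.62 ± 0.21, adjusted p = 0.035). Its call was lost without any 1 library but EXP 3 (-0.43 to -0.65, adjusted p = 0.0502 to 0.164) and under library totals (-0.30). The same call was lost with the split as a covariate (-0.58, adjusted p = 0.0749) and in the fit to that day alone (-0.64, 0.0999). By edgeR, Kdm3a had 0.215 (adjusted p = 0.394) on day 1 and -0.528 (0.114) on day 2. On day 2 Kdm3a passed as lower in the fit to that day alone (-0.53, adjusted p = 0.0352) and with limma voom (-0.48, 0.0404). Ankrd37 had 0.134 (edgeR adjusted p = 0.805) on day 1 and -0.177 (0.778) on day 4.

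Bnip3 and Bnip3l, receptors for the removal of mitochondria, passed on no day, with log2 fold changes of -0.47 ± 0.30, -0.82 ± 0.37 and -0.10 ± 0.35 for Bnip3 (adjusted p = 0.0247 on day 2 in the fit to that day alone) and 0.08 ± 0.14, -0.03 ± 0.17 and -0.14 ± 0.16 for Bnip3l. Higd1a, a mitochondrial gene, had 0.35 ± 0.20, -0.30 ± 0.25 and 0.11 ± 0.23. Vldlr, a lipoprotein receptor, had 0.16 ± 0.35, -0.41 ± 0.43 and -0.75 ± 0.41, and without day 4 EXP 3 it passed at -1.25 (adjusted p = 0.0404).

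The EXP effect differed between days for 5 of the 34 genes by the joint edgeR test, beside 8.82% of all genes. From day 1 to day 4 alone it moved up for 8.16% and down for 5.18% of all genes. Ndrg1 (adjusted p = 0.00611) and Slc16a1 (0.0256) rose on day 1 and passed on no later day: from day 1 to day 4 the log2 effect moved by -1.84 ± 0.35 (adjusted p = 0.00291) and -0.91 ± 0.25 (0.022). Tpi1 (0.0246) and Eno1 (0.0257) gained with time, by 1.43 ± 0.33 (adjusted p = 0.00915) and 1.48 ± 0.35 (0.00974) from day 1 to day 4. The Pfkfb4 effect (0.0264) moved by -1.90 ± 0.48 (adjusted p = 0.0142). For Ndrg1, Slc16a1 and Pfkfb4 the means of both arms moved from day 1 to day 4. In CPM per kilobase of exon, Ndrg1 went from 69.97 to 130.5 in CTRL and from 164.1 to 85.54 in EXP. Slc16a1 went from 38.09 to 56.29 and from 63.05 to 49.66, and Pfkfb4 from 8.594 to 16.05 and from 8.053 to 4.044. Left-out libraries changed the count of 5 to 2 without day 1 CTRL 4, 3 without day 4 EXP 2 and 10 without day 4 EXP 3.

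Within the EXP arm, 5 of the 34 changed over the days (14.3% of all genes): from day 1 to day 4 Pdk1 moved by 2.15 ± 0.34, Slc16a3 by 1.42 ± 0.43, Tpi1 by 1.22 ± 0.24, Eno1 by 0.96 ± 0.25 and Ndrg1 by -0.94 ± 0.26 in log2 units. This count was 2 without day 1 EXP 1, 3 without day 1 EXP 3 or day 2 EXP 3, 2 without day 4 EXP 1, 1 without day 4 EXP 2 and 11 without day 4 EXP 3. Within the CTRL arm, edgeR passed 0 of the 34 and 0.291% of all genes. Before adjustment 8 members had a p under 0.05, and 2 passed with DESeq2 and 3 with limma voom. Day and any processing run that went with it cannot be told apart.

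Within the high side of the library split, day 1 could be compared over 3 CTRL and 2 EXP libraries. All 13 day 1 calls kept their direction there, with log2 fold changes 0.669 to 1.22 times those over all libraries. Within the low side, day 4 could be compared over 2 CTRL and 3 EXP libraries. All 16 day 4 calls kept their direction, at 0.849 to 1.25 times the full values, but 0 of them passed with edgeR, where 15 had an unadjusted p under 0.05 and 1 gene of the whole table passed. All libraries of day 2 lay on the low side.

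Shares within pairs of related genes do not depend on scaling between libraries. Per kilobase of exon, Epas1 made up 14.8% ± 5.47 (SD, n = 4) of the sum of Epas1 and Hif1a in day 1 CTRL and 36.1% ± 6.72 (n = 5) in EXP. It made up 18.8% ± 7.62 (n = 3) against 40.99% ± 13.4 (n = 3) on day 2, and 19.9% ± 3.91 (n = 4) against 19.9% ± 5.75 (n = 3) on day 4. The arms did not overlap on days 1 and 2 and had the same mean on day 4. Pfkp made up 73.7% ± 3.3 against 65.7% ± 3.84 of the sum with Pfkl on day 1, 75.3% ± 5.36 against 58.5% ± 7.97 on day 2 and 75.5% ± 6.6 against 52.5% ± 14.4 on day 4, and only on day 2 were all EXP libraries below all CTRL libraries.

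Hk2 made up 87.0% ± 1.96 of the hexokinase pair in day 4 CTRL and 91.3% ± 2.01 in EXP, without overlap, and overlapped on the earlier days. In the other pairs the arms overlapped on every day. Slc16a3 made up 7.57% ± 2.47 of its pair with Slc16a1 in day 4 CTRL and 18.9% ± 11.3 in EXP, where EXP 3 lay at 6.89%. Ldhb made up at most 2.06% of its pair with Ldha in any library.

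**Figure D3:**
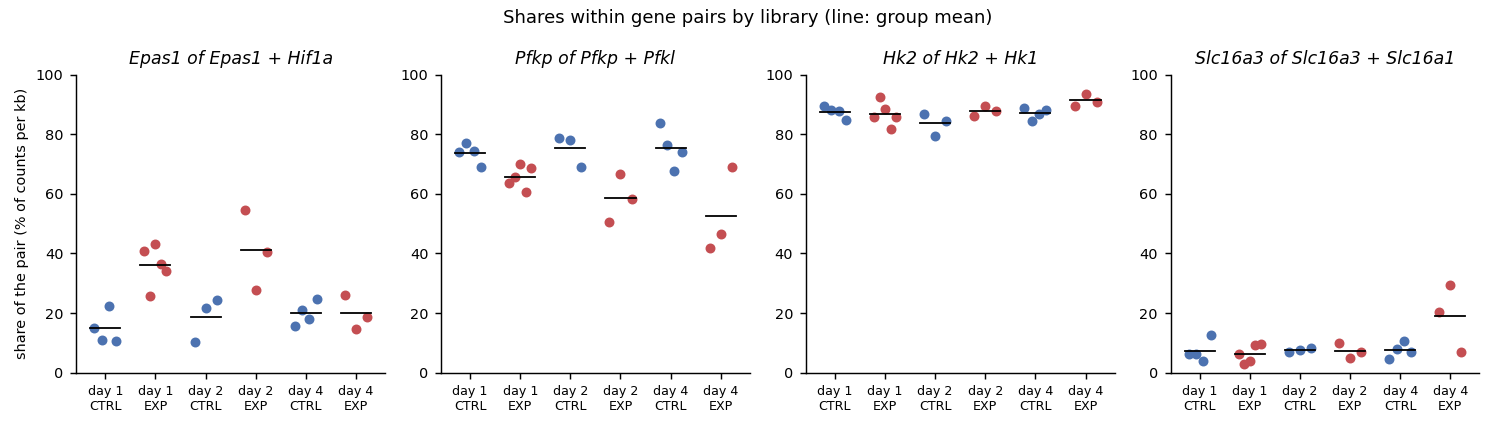
Share of one gene in the counts per kilobase of a pair (y axis, percent) in each library by day and arm, CTRL in blue and EXP in red, with lines at the group means. The Epas1 share is higher in EXP on days 1 and 2 and not on day 4, and the Pfkp share is lower in EXP.

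Together the 34 genes took 0.346% ± 0.0189 (SD, n = 4) of all counts in day 1 CTRL and 0.663% ± 0.0699 (n = 5) in EXP. They took 0.338% ± 0.0195 (n = 3) against 0.658% ± 0.116 (n = 3) on day 2, and 0.356% ± 0.0187 (n = 4) against 0.666% ± 0.193 (n = 3) on day 4. No EXP library lay within the CTRL range. These are shares of library totals, without TMM scaling. By role, in the genes' own rows, lower glycolysis took 0.0404% ± 0.00313 in day 4 CTRL and 0.149% ± 0.0908 in EXP. The 8 other HIF targets took 0.101% ± 0.0195 and 0.097% ± 0.0115. With the counts of near-identical copies added, as given below, lower glycolysis took 0.1096% ± 0.0113 in day 4 CTRL and 0.4029% ± 0.238 in EXP. The other HIF targets then took 0.1052% ± 0.02 and 0.1025% ± 0.011.

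**Figure D4:**
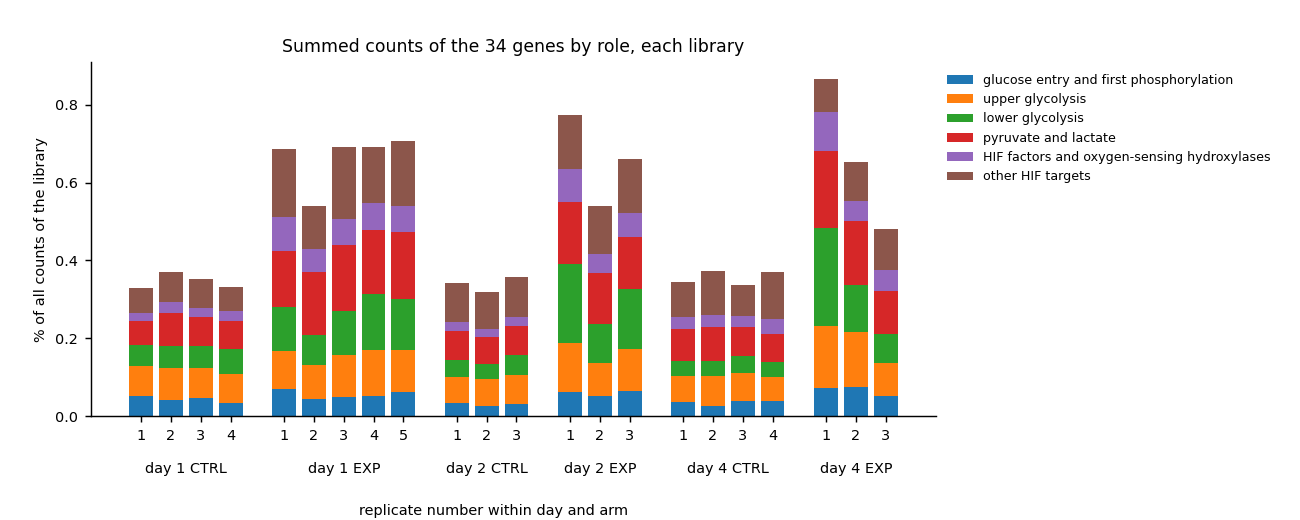
Summed counts of the 34 genes as a percent of all counts of a library (y axis), stacked by role, for each library by day, arm and replicate number. All EXP bars are taller than the CTRL bars of their day, and EXP 3 is the shortest of the day 4 EXP bars at 0.48%.

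Per kilobase of exon, Ldha ranked highest in every group, at 167 ± 28.1 CPM per kilobase (SD, n = 4) in day 1 CTRL and 349 ± 35.5 (n = 5) in EXP. Ndrg1, Aldoa and Pkm held the next 3 places in varying order in all groups but day 4 EXP, where Tpi1 and Adm stood above Ndrg1. In day 2 CTRL, Ndrg1 (132 ± 15.5) and Aldoa (125 ± 14.4) did not differ beyond their spread. Aldoc ranked last in every group. These ranks rest on each gene's own row. They are uncertain for genes with near-identical copies that also held counts, as given below. This holds above all for Gapdh (4.32% to 6.17% in its own row).

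Several glycolytic genes have near-identical copies, mostly processed pseudogenes, whose rows also held counts. Whether the reads in those rows came from the gene or from its copies was not tested. Such copies (at least 95% identity over at least 300 bases) were found for 11 of the 34 genes, and for Gapdh, Eno1 and Pgk1 the copies held more counts than the gene. The row of Gapdh held 4.32% to 6.17% of the counts of the gene with its 103 copies, that of Eno1 14.9% to 17.5%, and that of Pgk1 21.3% to 29.2%. Pgam1 held 53.4% to 59.7%, Gpi1 61.5% to 70.8%, Pkm 79.0% to 82.0%, Ldha 90.5% to 92.2% and Tpi1 93.1% to 96.8%. The levels of these genes are therefore uncertain, that of Gapdh above all.

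With the counts of copies added to each gene, an alternative chosen after seeing the data, 13, 14 and 16 genes passed on days 1, 2 and 4. All calls were kept and 2 were gained on day 2, Gapdh (0.90 ± 0.26, adjusted p = 0.0253) and Adm (adjusted p = 0.0486). Eno1 had log2 fold changes of 0.25 ± 0.23, 1.05 ± 0.28 and 1.68 ± 0.26, and Pgk1 had 0.70 ± 0.20, 1.07 ± 0.24 and 1.44 ± 0.23. Exons of 12 members overlap a gene on the opposite strand in GENCODE M21 (Slc2a1, Hk1, Gpi1, Pfkp, Aldoa, Tpi1, Gapdh, Hif1a, Bnip3, Ankrd37, Ndrg1 and Higd1a), and whether reads were assigned by strand is not given in the sources used here, so reads of the pairs cannot be told apart. Exons of 2 members, Pkm (with Gm49759) and Hif1a (with Gm49321), overlap a gene on the same strand, which no strand setting would separate.

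**Figure D5:**
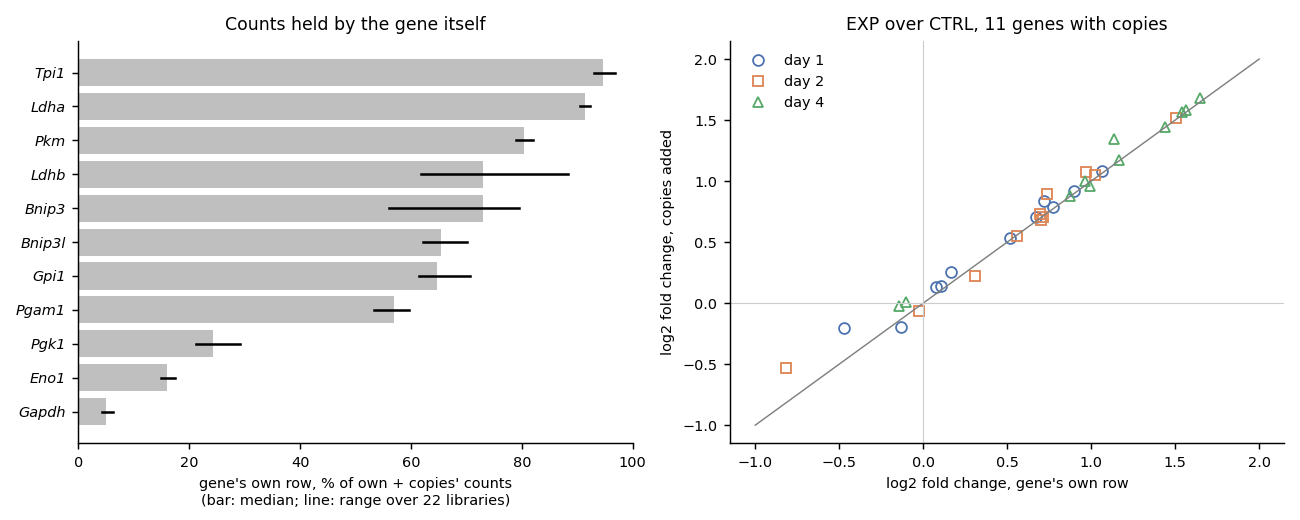
Left, the counts in a gene's own row as a percent of the sum with its near-identical copies (x axis), median and range over 22 libraries, for 11 genes. Right, log2 fold change of EXP over CTRL with copies added (y axis) against the gene's own row (x axis) for the same genes and 3 days, close to the line of equality for most points.

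Over 83 tested genes of neighbouring parts of the pathway, 30.1%, 28.9% and 33.7% passed on days 1, 2 and 4, beside 28.6%, 13.4% and 22.5% of all genes. Of 8 pentose phosphate genes, which feed on the same glucose phosphate and yield NADPH and ribose, 4, 5 and 5 rose and 0 fell on days 1, 2 and 4 (50.0%, 62.5% and 62.5% passed), with medians of 0.56, 0.81 and 0.80. H6pd, the dehydrogenase of the endoplasmic reticulum, rose by 1.29 ± 0.28 (adjusted p = 0.00194), 1.51 ± 0.34 (0.00621) and 1.03 ± 0.31 (0.0219). Pgd rose by 1.08 ± 0.16 on day 1 (6.67e-05), and the transketolase Tkt by 1.27 ± 0.17 on day 2 (9.45e-05) and 0.86 ± 0.15 on day 4 (0.000912).

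Of 13 tested other genes of glucose transport and glycolysis, 0 rose and 3 fell on day 1, 1 rose and 2 fell on day 2, and 0 rose and 3 fell on day 4, with medians of -0.18, -0.55 and 0.31. The 23.1% that passed on each day was below the share of all genes on day 1, above it on day 2 and near it on day 4. The transporter gene Slc2a10 fell on each day (-0.97 ± 0.15, -1.12 ± 0.18 and -0.96 ± 0.17). The muscle phosphofructokinase Pfkm fell on day 1 (-1.10 ± 0.24, adjusted p = 0.00203) and the ADP-dependent glucokinase Adpgk on day 4 (-1.27 ± 0.41, 0.0336), while Bpgm, which makes bisphosphoglycerate, rose on day 2 (2.65 ± 0.65, 0.0117).

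Of 20 other genes of pyruvate and lactate handling, 2, 3 and 3 rose and 2, 1 and 2 fell. The shares that passed, 20%, 20% and 25%, were below that of all genes on day 1, above it on day 2 and near it on day 4. The pyruvate dehydrogenase kinase gene Pdk2 fell on day 1 (-1.82 ± 0.21, adjusted p = 9.36e-06), and Pdk3 rose on day 2 (0.92 ± 0.25, 0.02). Pcx, the carboxylase that makes oxaloacetate from pyruvate, rose on day 2 (1.60 ± 0.29, 0.00135) and day 4 (1.72 ± 0.26, 0.000343), while the transporter gene Slc16a7 fell on day 1 (-1.43 ± 0.47, 0.0261) and day 4 (-1.64 ± 0.55, 0.038).

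Of 11 other genes of the HIF machinery, 3, 2 and 1 rose and 1, 0 and 1 fell. The shares that passed were 36.4%, 18.2% and 18.2%, beside 28.6%, 13.4% and 22.5% of all genes. Hif1an, the asparaginyl hydroxylase that inhibits HIF, rose on day 1 (0.66 ± 0.23, adjusted p = 0.0338), Rbx1, part of the ubiquitin ligase that removes the alpha subunit, on day 2 (0.67 ± 0.19, 0.0238), and Arnt, the beta subunit, fell on day 4 (-0.68 ± 0.19, 0.0167). Of 31 further HIF targets, 6, 7 and 9 rose and 4, 3 and 4 fell (32.3%, 32.3% and 41.9% passed), with medians of 0.31, 0.27 and 0.19. Collagen-modifying hydroxylases appeared on both sides: P4ha2 fell on day 1 (-2.28 ± 0.21, adjusted p = 1.47e-06), from a mean of 298 CPM in CTRL to 61.6 in EXP, and Plod2 rose on day 4 (4.75 ± 0.59, 0.000128), from 1.35 CPM to 36.3. Others named by the same rule were Hmox1, the haem oxygenase (2.73 ± 0.38 on day 1, 4.67e-05), Stc2 (1.99 ± 0.42 on day 2, 0.00402), the lipid droplet gene Plin2 (1.82 ± 0.41 on day 2, 0.00656) and the glycogen synthase Gys1 (2.00 ± 0.34 on day 4, 0.000815).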

How the data were processed

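The authors deposited raw read counts per gene for 22 libraries in 1 table, and trimming with Trimmomatic and the genome build mm39 are named in the submitters' processing notes. The aligner, counting tool, annotation and strand setting are not given in the sources used here. Symbols came from GENCODE M21 with RefSeq synonyms (52081 of 55414 identifiers matched), so gene coordinates of the counts are not given. A second row named Aldoa (0 to 18 counts) was left out, and the symbols Pgm1 and Pgm2 differ between the annotations. The 34 members and the pathway and marker lists were chosen with earlier results of these data known.

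All 22 libraries were fitted with edgeR 4.0.16 (R 4.3.3; filterByExpr with a minimum count of 10, TMM, quasi-likelihood F-tests, 6 group means, 16 residual degrees of freedom), with Benjamini-Hochberg adjustment over 17554 genes, after the scripts had been tested on simulated data. Standard errors were taken from each fold change and its F statistic. Alternatives were DESeq2 1.42.0, limma 3.58.1 (voom with quality weights), other scalings and filters, single-day fits, the library split, replicate blocks, left-out libraries and, chosen after seeing the data, added copies. Values in full are printed for members that passed in 1 direction on all 3 days and for the 3 with the smallest adjusted p in each day contrast and in the joint test. From other pathway lists the 2 passing genes with the largest change per day and at least 5 CPM are named. Copies were found by megablast (95% identity, 300 bases) in GENCODE M21 transcripts. Same-numbered CTRL and EXP libraries did not deviate together on every day, and the numbers were not used as pairs.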

Additional observations from a re-analysis of the deposited data

Results flagged for a closer look

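In 100 groups of 4 or 5 libraries examined for a library far from the others, 9 values stood apart, where chance alone sets about 1 in 20 apart. In day 1 CTRL, replicate 2 held 229.1 CPM of Slc16a1 (the others 147.1 to 150.3), 73.36 of Bnip3l (56.95 to 58.66) and 41.76 of Vldlr (25.78 to 27.36), and replicate 3 held 51.01 of Epas1 (25.43 to 29.37). In day 1 EXP, replicate 1 held 47.17 CPM of Pfkl (32.56 to 35.8), replicate 3 held 0.6533 of Aldoc (0 in the others) and replicate 4 held 237.9 of Slc16a1 (285.5 to 293.4). In day 4 CTRL, replicate 2 held 196.5 CPM of Hk2 (329.3 to 347.7) and 28.04 of Gapdh (20.78 to 21.93).

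The EXP effect differed between days by the joint edgeR test for Ndrg1 (adjusted p = 0.006113), Tpi1 (0.02458), Slc16a1 (0.02562), Eno1 (0.0257) and Pfkfb4 (0.02638).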

How the results depend on the processing

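No member that passed on a day changed sign under any alternative run. Against 13, 12 and 16 members on days 1, 2 and 4, an absolute log2 fold change of at least 1, required as well, left 5 on day 1 and 5 on day 2, fits to the libraries of day 4 alone left 10, the high side of the library split left 6 on day 1, and its low side left 0 on day 4. The joint test gave 5, or 8 with DESeq2 and 8 with limma voom. Change within EXP gave 5, or 8 with DESeq2 and 1 in a fit to that arm alone. Change within CTRL gave 0 with edgeR (8 at an unadjusted p under 0.05), 2 with DESeq2, 3 with limma voom and 2 in a fit to that arm alone. With 1 library left out, counts ran from 12 to 14 on day 1, 3 to 10 on day 2 (3 without EXP 1, 4 without CTRL 2, 6 without CTRL 1), 13 to 20 on day 4, 2 to 10 in the joint test, 1 to 11 within EXP and 0 to 0 within CTRL.

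Correlations of same-numbered CTRL and EXP libraries ran from -0.066 to 0.164 on day 1, -0.062 to -0.003 on day 2 and 0.08 to 0.146 on day 4, and 3 of 8, 0 of 6 and 6 of 6 libraries correlated best with their own number. With a replicate block, 11, 9 and 14 members passed on days 1, 2 and 4, 1 in the joint test, 3 within EXP (numbers across days) and 0 within CTRL. Counts per library were low for Aldoc (0 to 47) and, on day 2, for Ankrd37 (16 to 53), and the part of depth in their results was not tested. On day 2, with 3 libraries an arm, 10 of the 12 calls were lost when some 1 library was left out.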
